A study of Carassius auratus with 6 samples.

Results

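The GIMAP genes and the interferon-induced very large GTPases, both immune GTPase families, were followed across the goldfish eye (Carassius auratus). Members were gene models whose best Swiss-Prot match carried a gene name starting with gimap or gvin, or whose annotation text named a GTPase IMAP family member or a very large GTPase. Among these, models were selected on their measured level, 1 FPKM or more in any library (FPKM is reads per kilobase of model, scaled to the library total). This left 83 of the 56251 models in the table, 67 GIMAP and 16 very large GTPase models. The same names were carried by 221 models at any level, of which 95 had reads but stayed under 1 FPKM in every library and 43 had no read at all. Since the members were chosen by FPKM in these same libraries, a model present in 1 group alone entered through that group.

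GIMAP proteins (GTPases of immunity-associated proteins) bind guanine nucleotides at membranes inside the cell and are best known in mammals from lymphocytes, where several of them affect cell survival. The very large inducible GTPases are giant cytosolic proteins of the dynamin superfamily, induced by interferons in the mouse. In humans the counterpart is the pseudogene GVINP1. Fish genomes hold many copies of both families, often side by side.

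The samples were whole eyeballs of normal-eyed and celestial-eyed goldfish, fish 1 winter year old, in 3 libraries titled C and 3 titled R. Celestial eyes are a fancy-breed trait in which the eyes point upward. The sample characteristics call C normal and R celestial-eyed, but the design text of the series says the reverse, so groups are named by letter and phenotype is not assigned. By the design text R fish were bred on a farm in Jiangsu and C fish on one in Beijing, so letter, farm and phenotype cannot be told apart. The labels give no genotype, sex or treatment. They do not tie a library to a fish, and the p-values therefore reflect only how these libraries vary, which may be technical. Libraries held 9444623 to 11317200 reads in models. On the log2(FPKM + 1) scale, libraries of the same letter correlated at 0.946 to 0.965 over tested models, and libraries of different letters at 0.862 to 0.884.

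The summed level of the GIMAP family overlapped between the letters, while single models differed in both directions. The 67 GIMAP models summed to 254, 256 and 210 FPKM in C1, C2 and C3, and to 247, 254 and 205 FPKM in R1, R2 and R3. The groups overlapped, with means of 240 ± 25.8 FPKM in C and 235 ± 26.5 in R (n = 3 each, ± SD), a log2 ratio of 0.03 that changed sign when C1, C2 or R3 was left out (range -0.06 to 0.11). The 16 very large GTPase models summed to 56.5, 53.8 and 41.3 FPKM in C1, C2 and C3, and to 65.8, 82.7 and 68.2 FPKM in R1, R2 and R3. Every C library lay below every R library for this family, with means of 50.5 ± 8.15 and 72.2 ± 9.13 FPKM and a log2 ratio of -0.52. As RPM, reads scaled to the library total but not divided by model length, the letters overlapped, with 229, 204 and 156 in C and 194, 243 and 209 in R. Without the 5 models of highest mean the FPKM sums overlapped as well, at 13.0, 8.14 and 5.72 in C and 11.2, 25.3 and 12.5 in R. The GIMAP sums without their own 5 highest models were 144.7, 156.1 and 120.9 FPKM in C and 180.6, 184.9 and 149.4 in R. These overlapped too, but at a log2 ratio of -0.29, so the near-equal GIMAP means depended on those 5 models. As RPM the GIMAP letters overlapped, with 421.2, 421.5 and 337.5 in C and 458, 468.9 and 383 in R. These sums have no test, since the models were chosen with earlier results in view.

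**Figure D1:**
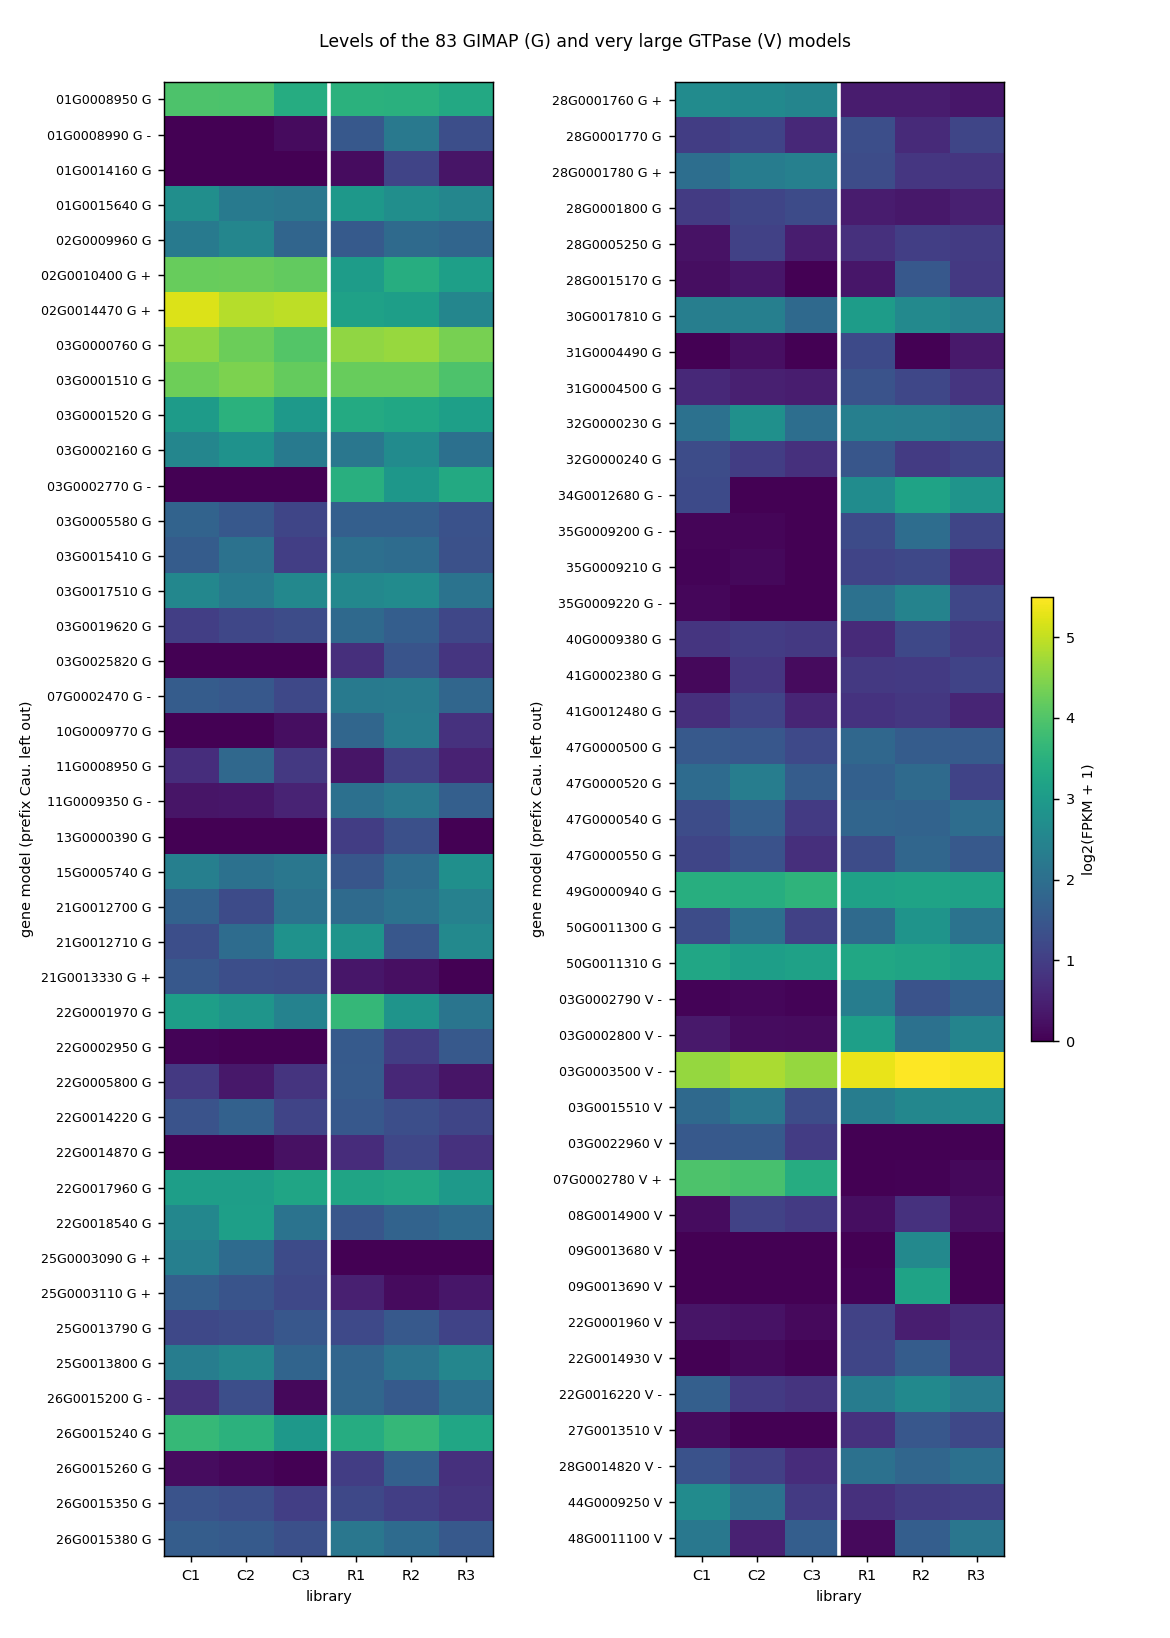
Level of each of the 83 models in each library as log2(FPKM + 1) (colour), in 2 columns of models sorted by chromosome and start within each family. G marks GIMAP and V very large GTPase models, and + or - marks models called higher or lower in C; dark cells on 1 side of the white line are models with few or no reads in that letter.

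Every C library lay above every R library for 12 of the 83 models and below for 29. Over all models at 1 FPKM or more in any library the letters did not overlap for 40.3%, 15.7% with C above and 24.6% with C below. Of the 83 models, 58 reached 1 FPKM in at least 3 of the 6 libraries, as did 87.9% of all models at 1 FPKM or more in any library, and were tested by limma on log2(FPKM + 1), with Benjamini-Hochberg adjustment over all 33907 tested models. A model was called at an adjusted p under 0.05. Fold changes on this scale understate the change of low models. In the GIMAP family 7 models were higher and 8 lower in C, and 34 were not called. Over all tested models 20.2% were called, 8.67% higher and 11.6% lower in C. In the very large GTPase family 1 model was higher, 5 were lower and 3 were not called. With the median log2 ratio of all tested models set to 0 (from -0.09), the GIMAP split was 9 higher and 6 lower, and the very large GTPase split stayed at 1 and 5. With quantile normalization the splits were 8 and 6, and 2 and 5. Of the 58 tested models, 5 reached the minimum only in C libraries and 7 only in R libraries. Models of that kind had to differ, so these counts describe the members and are no evidence about the families. The same limit holds for their p-values given below, and for other genes that reached 1 FPKM in libraries of 1 letter only. The C models were Cau.07G0002780, Cau.21G0013330, Cau.25G0003090, Cau.25G0003110 and Cau.28G0001760. The R models were Cau.01G0008990, Cau.03G0002770, Cau.03G0002790, Cau.03G0002800, Cau.11G0009350, Cau.35G0009200 and Cau.35G0009220. Among the 46 tested models with libraries at the minimum in both letters, 3 were higher and 6 were lower in C. Of these, 40 were GIMAP models with 3 higher and 3 lower, and 6 were very large GTPase models with 0 higher and 3 lower. Only with the families pooled is the share close to the 20.2% called over all tested models. The share over all models that meet the same condition was not computed. The median log2 fold change was -0.07 over the 49 tested GIMAP models, -0.73 over the 9 tested very large GTPase models and -0.09 over all tested models.

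**Figure D2:**
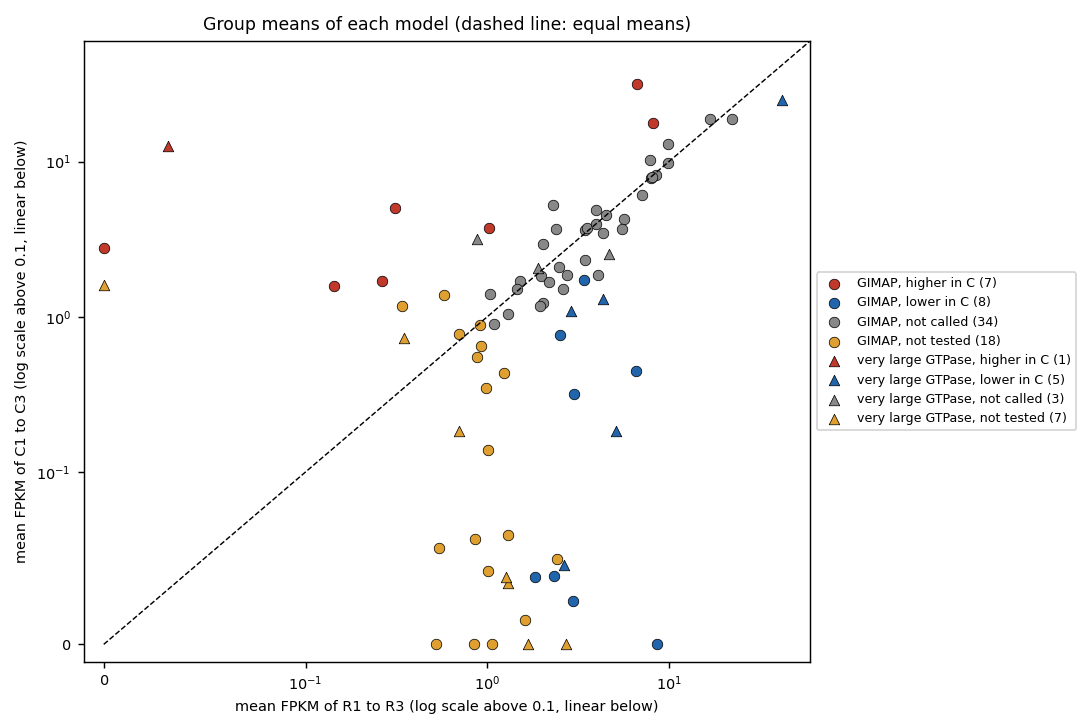
Mean FPKM of the C libraries against mean FPKM of the R libraries for each of the 83 models (circles GIMAP, triangles very large GTPase), on axes that are logarithmic above 0.1 and linear below. Models on the dashed line have equal means; most GIMAP models that were not called lie near it, and a group of models sits at or near 0 in C with about 0.5 to 9 FPKM in R.

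Of the 7 GIMAP models called higher in C, 3 were matches to gimap4, and these had the highest C levels of the 7. The highest was Cau.02G0014470 (chromosome 2, 32608491 to 32609789, minus strand, assembly not named in the files), with 36.0, 28.4 and 29.8 FPKM in C1, C2 and C3 and 7.83, 7.51 and 4.76 FPKM in R1, R2 and R3. The groups were far apart, a log2 fold change of 2.09 (SE 0.19, limma adjusted p = 0.000512). A second gimap4 model on the same chromosome, Cau.02G0010400 (25061261 to 25062540), had 17.6, 18.1 and 17.1 FPKM in C and 7.23, 9.69 and 7.66 FPKM in R. The difference was smaller, a log2 fold change of 1.03 (SE 0.13, limma adjusted p = 0.00224), with very little spread among the C libraries. On chromosome 28 another gimap4 model, Cau.28G0001760, had 5.26, 5.10 and 4.67 FPKM in C against 0.332, 0.347 and 0.256 FPKM in R, a log2 fold change of 2.20 (SE 0.16, limma adjusted p = 0.000194). For each of these models every C library lay above every R library.

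Other GIMAP models that were higher in C were low in both letters or nearly silent in R. The gimap9 match Cau.25G0003090 on chromosome 25 had 4.18, 2.79 and 1.39 FPKM in C, while R gave none, at least 26.1-fold higher with the R group set to a floor of 3 reads (limma adjusted p = 0.00411). Its neighbour Cau.25G0003110, a gimap8 match, had 2.15, 1.67 and 1.29 FPKM in C and 0.396, 0.124 and 0.267 FPKM in R, a limma adjusted p of 0.00805 at a log2 fold change of 1.09 (SE 0.20). It overlaps a model on the opposite strand. C1 was highest and C3 lowest at both models, and R stayed under every C library. The gimap7 matches Cau.28G0001780 (chromosome 28) and Cau.21G0013330 (chromosome 21) had means of 3.73 ± 0.693 and 1.59 ± 0.222 FPKM in C, and 1.02 ± 0.347 and 0.144 ± 0.134 FPKM in R (n = 3 each). Their log2 fold changes were 1.23 and 1.18, with limma adjusted p-values of 0.00574 and 0.00426.

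The GIMAP models that were lower in C were matches to gimap8 and gimap9, and several had next to no reads in C. The largest change was in the gimap8 match Cau.03G0002770 (chromosome 3, 6465818 to 6477513, plus strand), with no read in any C library and 10.1, 6.52 and 9.11 FPKM in R1, R2 and R3. With the C group set to 3 reads it was at least 263-fold lower in C (limma adjusted p = 7.21e-05, tested through its R libraries alone). The gimap8 match Cau.34G0012680 (chromosome 34, 32630523 to 32648714, minus strand) had 1.34 FPKM in C1, no read in C2 and C3, and 5.37, 8.09 and 6.24 FPKM in R, a log2 fold change of -2.495 (SE 0.35, limma adjusted p = 0.00291). Here C1, with 39 reads, stood apart from the other C libraries but stayed below every R library.

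Further gimap8 and gimap9 models followed the same direction at lower levels. Cau.11G0009350 (gimap8, chromosome 11) had 0.240, 0.250 and 0.463 FPKM in C against 3.11, 3.69 and 2.19 FPKM in R, a log2 fold change of -1.59 (SE 0.20, limma adjusted p = 0.00211). Cau.01G0008990 (gimap9, chromosome 1) had 1 read in all of C and 56 in all of R, or 53.6 times as many after scaling to library totals, with a 95% exact interval of 9.24 to 2156, and an adjusted p of 0.00448 by limma. Intervals and floors cover counting error only. The chromosome 35 models Cau.35G0009200 (gimap8) and Cau.35G0009220 (gimap9) had means of 1.84 ± 0.949 and 2.96 ± 1.63 FPKM in R and 0.0393 ± 0.0340 and 0.0252 ± 0.0436 FPKM in C, with limma adjusted p-values of 0.00764 and 0.00649.

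A pair of GIMAP calls was narrow. Cau.26G0015200 (gimap9, chromosome 26) had 0.708, 1.48 and 0.0837 FPKM in C and 2.51, 1.94 and 3.10 FPKM in R, a log2 fold change of -1.07 (SE 0.31, limma adjusted p = 0.0466). Leaving out C1, C3, R1, R2 or R3 ended the call, with limma adjusted p-values of 0.108, 0.0763, 0.115, 0.0879 and 0.137. Cau.07G0002470 (gimap8 by match, described as trichohyalin-like, chromosome 7) had means of 1.72 ± 0.388 FPKM in C and 3.41 ± 0.752 in R (adjusted p = 0.0486 by limma), and the call ended without C1 (0.0817), C2 (0.0731), C3 (0.0965), R1 (0.146) or R2 (0.159). Both calls also ended with pseudocounts of 0.1 and 0.5, without the low-value filter, with quantile normalization and with the median ratio set to 0, where limma adjusted p-values were 0.0506 to 0.0947.

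Most of the abundant GIMAP models were not called, and over all tested models 20.2% were called. The 5 with the highest means were the gimap4 models on chromosome 2 described above and the following 3. Cau.03G0000760 (gimap8, chromosome 3) had 22.7, 18.3 and 15.4 FPKM in C and 23.0, 24.1 and 19.6 FPKM in R, overlapping ranges with a limma adjusted p of 0.322. Cau.03G0001510 (gimap9, chromosome 3) had 18.5, 20.4 and 17.5 FPKM in C and 17.8, 17.8 and 14.7 FPKM in R (adjusted p = 0.394 by limma). Cau.01G0008950 (gimap8, chromosome 1) had 14.6, 14.4 and 9.61 FPKM in C and 10.5, 10.3 and 9.03 FPKM in R, where C3 lay among the R libraries. It was not called (limma adjusted p = 0.221), but without C3 it was, at a log2 fold change of 0.51 and an adjusted p of 0.0291 by limma. Levels were low in general: the median over the 67 GIMAP models was 1.90 FPKM, and over all 38572 models at 1 FPKM or more in any library it was 4.07 FPKM.

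Summed by Swiss-Prot best match, gimap4 models were higher and gimap8 models lower in C, mostly through their called models. The 12 gimap4 models summed to 93.5, 88.6 and 88.4 FPKM in C and 51.5, 53.0 and 48.0 FPKM in R, while the 23 gimap8 models summed to 72.9, 67.2 and 49.9 FPKM in C and 92.5, 96.6 and 76.5 FPKM in R. All C libraries were above all R libraries for gimap4 and below them for gimap8. The 9 gimap4 models that were not called or not tested summed to 36.2 ± 1.33 FPKM in C and 35.6 ± 0.383 in R, and the 17 such gimap8 models to 59.1 ± 10.8 and 64.9 ± 8.73. Both of these sums overlapped, but leaving out models called in these same libraries favours overlap. The called gimap4 model Cau.02G0014470 alone had means of 31.4 FPKM in C and 6.70 in R. The sums overlapped for gimap7 (21.3 ± 2.33 FPKM in C and 22.7 ± 4.13 in R, 9 models) and gimap9 (44.3 ± 9.21 and 49.6 ± 6.74, 14 models). They also overlapped for gimap5, with 9.13, 14.2 and 7.19 FPKM in C and 13.0, 12.7 and 10.3 FPKM in R over 4 models. The single gimap2 and gimap6 models had means of 0.519 and 0.925 FPKM in R. These names are those of the closest Swiss-Prot entry and do not establish which goldfish model corresponds to which mammalian gene. Some descriptions name another member: Cau.28G0001760 (gimap4) is described as member 8-like and Cau.03G0000760 (gimap8) as member 4-like. Cau.28G0001770 (gimap8) and Cau.28G0001780 (gimap7) share a best-matching goldfish protein. The split into these sums therefore depends on the naming used.

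**Figure D3:**
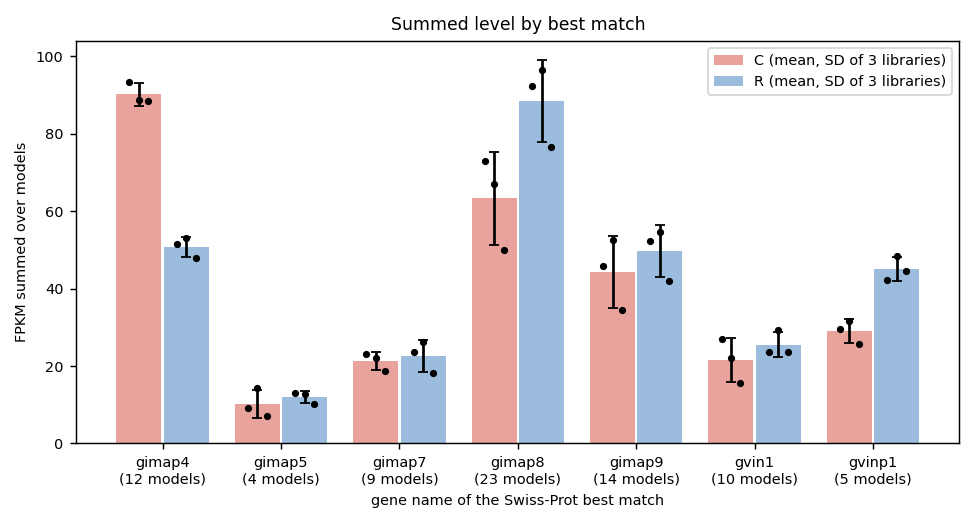
FPKM summed over the models of each best-match name, as bars of the mean over 3 libraries with SD and points for the single libraries. The gimap4 sum is near 90 FPKM in C and 51 in R, the gimap8 and gvinp1 sums are higher in R, and the gimap5, gimap7, gimap9 and gvin1 sums overlap.

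Among the very large GTPases, a single model carried much of the signal and was lower in C. Cau.03G0003500 (gvinp1 match, chromosome 3, 7930393 to 7936322, plus strand) had 23.9, 27.1 and 23.6 FPKM in C1, C2 and C3 and 39.0, 44.2 and 42.1 FPKM in R1, R2 and R3. The groups did not overlap, and C was lower by a log2 fold change of -0.73 (SE 0.11, adjusted p = 0.00474 by limma). It had the highest mean of all 83 models, 33.3 FPKM over the 6 libraries. The opposite case was Cau.07G0002780 (gvin1, chromosome 7, 5083775 to 5089590, minus strand), with 14.5, 13.96 and 9.56 FPKM in C and 0, 0.0171 and 0.0788 FPKM in R. It held 2125 reads in all of C and 6 in all of R. The depth-scaled ratio was 370 (95% exact interval 170 to 1009), with a log2 fold change of 3.71 (SE 0.19, limma adjusted p = 3.91e-05).

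The neighbouring gvin1 models Cau.03G0002790 and Cau.03G0002800 on chromosome 3 were both lower in C. The first had 0.0364, 0.0701 and 0.0312 FPKM in C and 4.02, 1.64 and 2.25 FPKM in R, and the second 0.288, 0.139 and 0.124 FPKM in C and 7.61, 3.13 and 4.57 FPKM in R. R1 was highest and R2 lowest at both. They lie 86 bases apart on the same strand and share 1 best-matching goldfish protein, so they may be pieces of 1 gene. Their log2 fold changes were -1.75 and -2.30, with limma adjusted p-values of 0.00336 and 0.00158.

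For a pair of other gvin1 models the lower level in C was called less firmly. Cau.22G0016220 (chromosome 22) had 2.18, 0.917 and 0.776 FPKM in C and 3.95, 5.14 and 3.90 FPKM in R (limma adjusted p = 0.0127). Its log2 fold change was -1.26, and -1.15 without R2, where it was not called (limma adjusted p = 0.0561). Cau.28G0014820 (chromosome 28) had 1.60, 1.07 and 0.619 FPKM in C and 3.12, 2.53 and 3.06 FPKM in R (log2 fold change -0.92, limma adjusted p = 0.0224). Without R1, R2 or R3 the fold changes were -0.88, -0.99 and -0.89, and none was called (limma adjusted p = 0.0757, 0.0566 and 0.0714). Cau.03G0015510 (gvin1, chromosome 3) was not called on log2(FPKM + 1) with all libraries (2.55 ± 1.07 FPKM in C and 4.67 ± 0.566 in R, limma adjusted p = 0.0744) and was called without C2 (0.0350). With limma-voom on recovered reads this model was called with all libraries (limma-voom adjusted p = 0.0463). It overlaps an slc25a17 model on the other strand that was itself lower in C, and reads of the strands may not have been separated. In all, 10 of the 83 models overlap a model on the opposite strand.

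Models read in 1 letter and nearly silent in the other were mostly R models. At most 3 reads over the 3 C libraries were found for 16 of the 83 models, while this was so for 2.4% of all models at 1 FPKM or more in any library. The 16 include Cau.09G0013680 and Cau.09G0013690, which were read almost only in R2 and so do not stand for letter R. At most 3 reads over the R libraries were found for 2 of the 83, against 1.27% of all. Low models reach such counts more easily. Among models whose highest library held 1 to under 5 FPKM, 13 of 52 members and 4.73% of all models had at most 3 reads in C, and 2 of 52 members and 2.49% of all had at most 3 in R. Gene loss, sequence divergence and silence were not told apart, since no genome sequence of either stock was used here.

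Those nearly silent in C and not yet named were low in R as well. Cau.03G0025820 (gimap8, chromosome 3) had no read in C and 0.676, 1.71 and 0.813 FPKM in R, at least 21.1-fold lower in C with that group set to 3 reads. Cau.22G0002950 (gimap7, chromosome 22) had 2 reads over C and 256 over R, a read ratio of 123 with an interval of 33.6 to 1018. Cau.10G0009770 (gimap7, chromosome 10) had 1 read over C and 2.49, 4.07 and 0.722 FPKM in R. The remaining GIMAP models of this kind were Cau.01G0014160, Cau.13G0000390, Cau.22G0014870, Cau.26G0015260, Cau.31G0004490 and Cau.35G0009210, with means of 0.519 to 1.30 FPKM in R. None of these was tested, because too few libraries reached 1 FPKM. Among the very large GTPases, Cau.27G0013510 (gvin1, chromosome 27) had 3 reads over C and 0.717, 1.81 and 1.28 FPKM in R. The model silent in R was Cau.03G0022960 (gvin1, chromosome 3, 49138419 to 49144014, minus strand), with 1.92, 1.96 and 0.961 FPKM in C. R gave none, which sets C at least 59.8-fold above the floor.

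Some models differed between libraries of the same letter. The very large GTPase models Cau.09G0013680 and Cau.09G0013690, neighbours on chromosome 9 (34844155 to 34848260 and 34858942 to 34863477, both plus strand), were read almost only in R2. The first had 44 reads in R2 (5.01 FPKM) and none in the other 5 libraries, and the second had 253 reads in R2 (8.14 FPKM), 1 in R1 and none elsewhere. For 0.192% of all models at 1 FPKM or more, 1 library held 90% or more of the summed FPKM, and these were the only such members. Because of them, the untested very large GTPase models summed to 18.1 FPKM in R2 and to 3.25 and 2.68 FPKM in R1 and R3.

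A library at 1 FPKM or more beside one of the same letter without a read was seen for 5 of the 83 models, and for 3.05% of all models at the minimum. Besides the chromosome 9 pair and Cau.34G0012680, these were Cau.13G0000390 (gimap9, chromosome 13), with 1.011 and 1.52 FPKM in R1 and R2 and no read in R3, and Cau.31G0004490 (gimap4, chromosome 31), with 8 reads in R1 and none in R2. Without lacking reads anywhere, Cau.48G0011100 (gvin1, chromosome 48) ranged from 0.413 to 3.63 FPKM within C and from 0.103 to 3.46 FPKM within R. Cau.44G0009250 (gvinp1, chromosome 44) had 5.32, 3.21 and 0.916 FPKM in C and 0.705, 0.928 and 1.01 FPKM in R, with C3 among the R libraries. These last models were chosen after their values were seen. The median SD within letters, on the log2(FPKM + 1) scale, was 0.27 over tested GIMAP models, 0.34 over tested very large GTPase models and 0.22 over all tested models.

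Along the chromosomes the models were clustered. They lay on 28 chromosomes, with 15 on chromosome 3, 10 on chromosome 22 and 7 on chromosome 28. Joining models whose starts lay within 500 kb of the next gave 17 clusters of 2 to 5 models that held 43 of the 83. Most clusters held no called model, but within some the models shared a direction. The clusters with a shared direction given here were picked after their values were seen. The chromosome 3 cluster of Cau.03G0002770, Cau.03G0002790 and Cau.03G0002800, which mixes a GIMAP model with very large GTPase models over 66.2 kb, summed to 0.324, 0.209 and 0.155 FPKM in C and to 21.7, 11.3 and 15.9 FPKM in R. The chromosome 35 cluster of 3 GIMAP models over 13.7 kb summed to 0.107 ± 0.0945 FPKM in C and 5.81 ± 2.87 FPKM in R. In this cluster Cau.35G0009210 and Cau.35G0009220 overlap on opposite strands, so their reads may be shared. Every model of these chromosome 3 and 35 clusters reached 1 FPKM in R libraries only and so entered through that letter.

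The opposite direction was seen on chromosomes 25 and 28. The chromosome 25 cluster of Cau.25G0003090 and Cau.25G0003110 summed to 4.50 ± 1.82 FPKM in C and 0.262 ± 0.136 in R. Both of these models reached 1 FPKM in C libraries only and so entered through that letter. On chromosome 28, 4 GIMAP models over 163 kb (4210096 to 4373356) summed to 10.1, 11.4 and 10.9 FPKM in C and to 3.58, 2.03 and 2.67 FPKM in R. In this cluster 3 of the 4 models had every C library above every R library, and Cau.28G0001770 overlapped (0.895 ± 0.310 FPKM in C and 1.09 ± 0.467 in R). Over all models at 1 FPKM or more in any library, 15.7% had every C above every R. Of the cluster, Cau.28G0001760 and Cau.28G0001800 reached 1 FPKM in C libraries only. Cau.28G0001760 and Cau.28G0001800 share a best-matching protein, and so do Cau.28G0001770 and Cau.28G0001780. Over all members, 16 of 83 share a best match with another member. Some of these may be pieces of 1 gene, while Cau.30G0017810 and Cau.32G0000230 lie on different chromosomes. The number of separate genes among the members is therefore not known. The 5 models on chromosome 26 (40114666 to 40383886) and the 4 on chromosome 47 (913944 to 1037783) overlapped in sum, at 13.8 ± 3.91 and 7.29 ± 2.34 FPKM in C, and 17.5 ± 2.31 and 8.77 ± 0.856 FPKM in R.

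**Figure D4:**
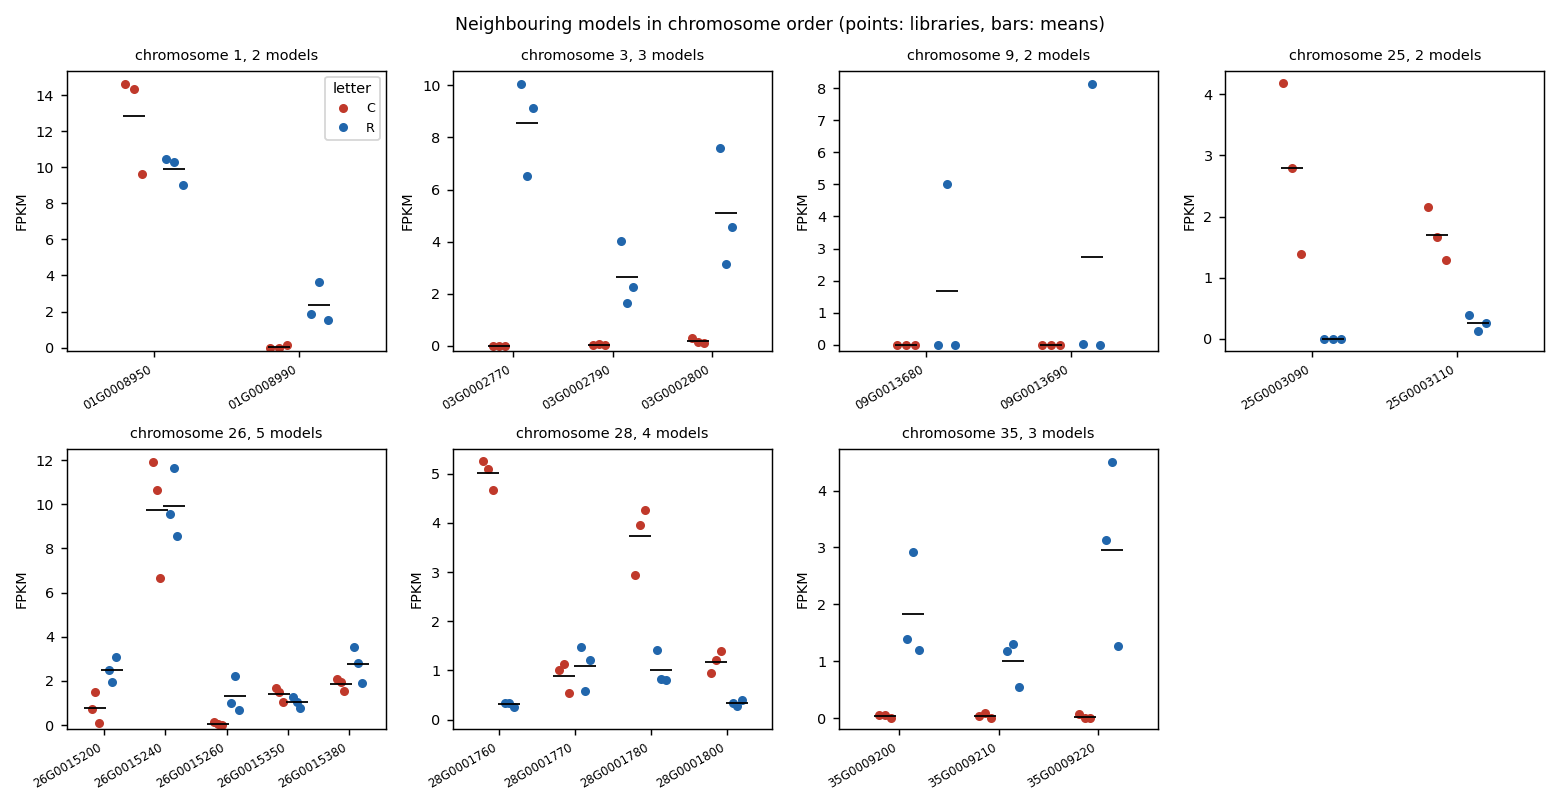
FPKM of each model in the clusters that held a called model, and in the chromosome 9 pair, in chromosome order, with a point per library (C red, R blue) and a black bar for each mean. On chromosomes 3 and 35 the C points lie at or near 0 for every model, on chromosome 25 the R points do, and on chromosome 9 a single R point stands above the rest.

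Genes next to the clusters were called in both directions. Of 89 tested models inside the clusters or among the 5 on each side, 8 were higher and 15 were lower in C, which is 25.8% against 20.2% of all tested models. Next to Cau.01G0008990 on chromosome 1, a samd9 match, named for a sterile alpha motif protein, had no read in C and 1.81 ± 0.474 FPKM in R (limma adjusted p = 0.00195). This match was tested through its R libraries alone. Beside the chromosome 3 cluster, lgals3bpb, encoding a secreted galectin-3 binding protein, averaged 6.22 ± 5.78 FPKM over C and 36.5 ± 6.98 over R (limma adjusted p = 0.0320). Around the chromosome 25 cluster, 3 of 8 tested neighbours were higher in C and none was lower, among them arpp19, a phosphatase regulator, with means of 23.0 and 14.2 FPKM in C and R and a log2 fold change of 0.68 (SE 0.15, limma adjusted p = 0.0172). Around the chromosome 47 cluster, guca1a copies, which encode a photoreceptor guanylate cyclase activator, went in opposite directions, with 5.79 ± 3.27 against 20.4 ± 3.59 FPKM at one and 21.4 ± 4.78 against 2.59 ± 0.201 FPKM at the other (C against R, limma adjusted p = 0.00826 and 0.000146). These neighbours were named after their values were seen.

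The 1 FPKM minimum divided similar models. Just inside it were the GIMAP models Cau.28G0005250 and Cau.41G0002380, with 1.08 and 1.16 FPKM in their highest library, and the very large GTPase models Cau.22G0001960 and Cau.08G0014900, each with 1.13 FPKM. Just outside were the GIMAP models Cau.25G0003070 (0.997 FPKM) and Cau.22G0002930 (0.984 FPKM) and the very large GTPase models Cau.23G0007910 (0.881 FPKM) and Cau.03G0002870 (0.770 FPKM). Cau.25G0003070 lies just before the chromosome 25 cluster and had 0.997, 0.739 and 0.197 FPKM in C and 0.0737, 0 and 0 FPKM in R. The longest member was the 16028-base model Cau.22G0001960, and the shortest was the 213-base Cau.21G0012710, for which few reads make 1 FPKM. Names were uneven: the Swiss-Prot match named the family for 79 of the 83 models, the description for 70, and both for 66. Among the 83, 4 GIMAP models were described as trichohyalin-like.

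Interferon-linked genes outside these families were called in both directions, as were models in general. Over all tested models 8.67% were higher and 11.6% were lower in C, with a median log2 fold change of -0.09. The mx, gbp and irg genes, GTPase families known for interferon-induced members, had 2 higher and 5 lower of 22 tested in C. Their median log2 fold change was -0.03, and they summed to 136 to 168 FPKM in C and 111 to 145 in R. An irgc match (Cau.40G0009910) was higher in C, with 78.9 ± 2.91 FPKM against 43.8 ± 3.97 in R (limma adjusted p = 0.00293). This model alone is a large part of the summed means, 152 FPKM in C and 133 in R, and whether it responds to interferon was not tested. An mx2 match (Cau.25G0007020), a dynamin-like antiviral GTPase, was lower, with 0.176, 0.509 and 1.36 FPKM in C and 18.8, 11.6 and 7.20 FPKM in R (limma adjusted p = 0.00175). Of 109 tested interferon response genes, 9 were higher and 12 were lower, shares close to those over all tested models. Their median was -0.10, and their summed levels overlapped (764 to 1110 FPKM in C and 795 to 1080 in R). The smallest p-values there belonged to an ifi44l match (4.63 ± 0.783 FPKM in C and 0.268 ± 0.104 in R, limma adjusted p = 0.000409) and a trim25 match, an antiviral ubiquitin ligase, which had no read in C and 3.41 ± 1.61 FPKM in R (limma adjusted p = 0.00185). Each reached 1 FPKM in libraries of 1 letter only, so each had to differ.

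Lymphocyte markers, which mark the cells GIMAP genes are best known from, were lower in C more often than higher. Of 62 tested lymphocyte marker models, 4 were higher and 20 were lower, with a median log2 fold change of -0.49, but the summed levels overlapped (219 to 341 FPKM in C and 306 to 342 in R). Calls over all tested models also leaned to lower in C, with 8.67% higher, 11.6% lower and a median of -0.09. The markers with the smallest p were copies of the killer cell genes prf1 (Cau.44G0001870, 0.526 ± 0.466 FPKM in C and 5.42 ± 0.463 in R) and gzmb (Cau.22G0010780, 0.129 ± 0.131 and 2.16 ± 0.502), with limma adjusted p-values of 0.00121 and 0.00238. The gzmb copy was tested through its R libraries alone. The T cell receptor subunit gene cd3e had 5.44, 3.27 and 1.70 FPKM in C and 14.5, 16.4 and 13.2 FPKM in R (limma adjusted p = 0.00427). The B cell receptor subunit gene cd79a went the other way, with 63.7, 46.7 and 41.1 FPKM in C and 23.5, 19.5 and 17.7 FPKM in R (limma adjusted p = 0.00352). The last 2 genes were chosen after their values were seen. Of the 96 lymphocyte marker models 4 were at 0 in every library, copies of prf1, gata3 and zap70, and cd4, cd8a and the T cell receptor constant genes were not matched by name. The part of lymphocyte number in the GIMAP values was not tested, and in whole eyes fewer cells of a type and less RNA per cell cannot be told apart.

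Other cell type lists differed in their called shares, and over all tested models 8.67% were higher and 11.6% were lower in C. Of 67 tested myeloid models 8 were higher and 8 lower (summed 1078 to 1568 FPKM in C and 927 to 1217 in R), led by apoc1 (239 ± 41.0 FPKM in C and 54.8 ± 12.8 in R) and an mpeg1 copy (no read in C and 2.41 ± 0.535 FPKM in R). Of 46 tested survival and lysosome genes linked to GIMAP proteins 3 were higher and 2 lower (summed 887 to 973 FPKM in C and 766 to 838 in R). That is a smaller called share than over all tested models. The higher ones were the survival genes bcl2l1 (35.9 ± 2.91 FPKM in C and 23.5 ± 2.05 in R) and mcl1 (copies at 71.9 ± 4.65 against 54.2 ± 1.17 FPKM and at 131 ± 14.6 against 80.6 ± 21.1 FPKM). The lower ones were copies of foxo3, a transcription factor of cell survival (1.77 ± 0.113 against 5.76 ± 0.209 FPKM, and 3.02 ± 0.790 against 7.25 ± 1.12 FPKM). Of 30 endothelial models 2 were higher and 2 lower (summed 195 to 247 FPKM in C and 233 to 249 in R), where the higher ones were esam (6.62 ± 0.496 FPKM in C and 4.07 ± 0.321 in R) and pecam1 (13.6 ± 0.517 and 10.1 ± 0.373), both adhesion molecules. The lower ones were copies of the receptor gene tie1 (4.58 ± 0.325 and 10.3 ± 1.08 FPKM, and 7.51 ± 0.443 and 11.8 ± 1.23). The genes bcl2l1, mcl1, esam and pecam1 were named after their values were seen. Red blood cell genes had 4 of 8 higher and none lower in C (summed 2840 to 6519 FPKM in C and 676 to 1595 in R). Among them alas2, the heme synthesis enzyme of red cells, averaged 66.3 ± 41.5 FPKM over C and 6.89 ± 2.54 over R. Lens genes had 2 higher and 21 lower of 38 (summed 27410 to 52620 FPKM in C and 66380 to 69780 in R). Surface epithelium genes had 5 higher and 19 lower of 39 (summed 1602 to 2144 FPKM in C and 2623 to 3752 in R). Single models could differ far more than these sums. The lens gene grifin had 0.214 ± 0.226 FPKM in C and 63.8 ± 16.3 in R, and the epithelial keratin match krt18 0.150 ± 0.170 and 20.6 ± 4.71. Photoreceptor genes had 5 higher and 1 lower of 16, and skeletal muscle genes 5 higher and 0 lower of 30. The part of these differences in tissue share in the GIMAP and very large GTPase values was not tested.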

How the data were processed

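Frozen eyeballs gave the RNA, of which 3 µg went into each library, per the labels' protocols. The authors deposited FPKM values for 56251 models, with positions and model lengths; the tables of single letters repeat them exactly. The submitters' processing notes list the tools TopHat2 2.0.9, DESeq 1.10.1 and Bowtie 0.12.5 without roles, beside a pig genome build that does not match the goldfish identifiers. Which goldfish assembly, counting tool and strand rule were used is not stated in those notes, so how reads of near-identical copies were shared between models is unknown. FPKM times model length gave whole reads for 100% of values (tolerance 0.01 of a read). At this depth 3 reads in a model of 1 kb equal 0.265 to 0.318 FPKM.

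Models at 1 FPKM or more in at least 3 of 6 libraries were tested with limma 3.58.1 in R 4.3.3 (lmFit, then eBayes with trend and robust) on log2(FPKM + 1), two-sided, with group as the only term. The test code was checked on simulated counts with a fixed spread, so that check does not bear on the spread of these libraries. List genes were matched by goldfish RefSeq symbol (assembly ASM336829v1, names only), otherwise by Swiss-Prot gene name, allowing a final a or b. The members and lists were chosen with earlier results of these data known. Named members were, in each family, up to 10 called models per direction with the largest change and the 5 with the highest mean. Those with at most 3 reads in 1 letter and those nearest the 1 FPKM minimum were also named. For the lists the rule was the 2 tested models with the smallest p. Fewer are given for red blood cells, lens and surface epithelium, and no photoreceptor or skeletal muscle model is named. Alternatives were other pseudocounts, filters and scalings, limma-voom on recovered reads, a replicate block and leaving out each library. No sequences are shown.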

Additional observations from a re-analysis of the deposited data

How the results depend on the processing

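With a mean of at least 5 FPKM, 2 GIMAP models of 11 tested, 2 very large GTPase models of 2 tested and 3670 models in all were called, against 15, 6 and 6864; fewer models were tested there. Leaving out single libraries gave 13 to 16 GIMAP calls, 4 to 7 very large GTPase calls and 3557 to 6404 calls over all models, with 4145 without C1, 3992 without R1, 3557 without R2 and 4520 without R3. Over all models the split of 2939 higher and 3925 lower became 3726 and 3027 with the median ratio set to 0. Pseudocounts of 0.1 and 0.5, no filter, quantile normalization and limma-voom kept both family counts within 1.5 times, though Cau.26G0015200 and Cau.07G0002470 lost their calls under each of these except limma-voom, under which Cau.26G0015200 alone lost it.

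The GIMAP sum ratio (log2 0.03) became -0.000531 over models at any level, -0.02 without C1 or C2 and -0.062 without R3, in a range of -0.062 to 0.115 over single libraries left out. The very large GTPase ratio stayed between -0.60 and -0.39 when single libraries were left out. The cluster count was 16 at 200 kb and 20 at 1000 kb.

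The replicate numbers gave no clear pairing of the samples: deviations of same-numbered libraries correlated at -0.005, 0.099 and 0.039. C1, C3 and R1 correlated best with another number, and C2, R2 and R3 with their own. Correlations this small over so few libraries cannot settle whether the samples were paired. With the number as a block 15 GIMAP, 6 very large GTPase and 5971 models were called, and of the 25 models followed across settings only Cau.26G0015200 lost its call (limma adjusted p = 0.0789). None of those 25 models changed direction in a setting that tested it; the other members were not followed across settings. Depth limits the models with few reads, for which only bounds or wide counting intervals can be given.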
